A study of Rattus norvegicus with 6 samples.

Results

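Kinesins are motor proteins that walk along microtubules or shorten their ends, and the transcripts of 36 genes for kinesin motors and their accessory chains are described here in glands of the pancreatic duct. The members were all rows of the deposited tables whose symbol is Kif with a number and at most 1 letter from a to c, together with Kifap3, Kifc1 to Kifc3 and Klc1 to Klc4 where listed, out of 15679 gene rows. Kifc2 stands in the tables in capitals as KIFC2 and was taken as a member. The series compared 3 libraries from wild-type Sprague-Dawley rats with 3 libraries from HIP rats of the same strain, whose transgene encodes human islet amyloid polypeptide, a model of type 2 diabetes, taken at a pre-diabetic stage. In this model the insulin promoter drives the transgene in beta cells. The duct glands were recognised by their shape, cut out with a laser and their RNA was sequenced. Age and sex are not in the labels, nor whether the libraries stem from separate animals, and a p-value here reflects only the scatter among these libraries, which may be technical. The libraries are named as titled, and values always follow the order WT26, WT1, WT4 for wild type and HIP30, HIP2, HIP3 for HIP.

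Members of the kinesin superfamily share a motor domain that splits ATP, and differ in their tails, which decide what they hold. One branch works in dividing cells, where it builds the spindle, moves chromosomes and organises the bridge at which daughter cells part, and its transcripts are known to accumulate in G2 and mitosis. Other branches carry vesicles, mitochondria and endosomes in cells that do not divide, or move building material along cilia, of which duct epithelial cells bear a single primary one. By these roles the tables held 10 division motors, 3 heavy chains and 3 light chains of kinesin-1, 5 kinesin-3 cargo motors, 7 motors of cilia and 8 others. Kif2a and Kif2b also act on spindles but were placed among the others. Kif2a was not lower in HIP, at 0.21 on the log2 scale against wild type, standard error 0.19 (limma). Kif4a, Kif14, Kif1a, Kif7, Kif17, Kif6, Kif24, Kif21a and Klc2 were not analysed here.

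The libraries held 15141136 to 17574682 reads on the listed genes. Levels are given in CPM, read counts scaled to library size with TMM factors, and are compared within a gene only, because transcript length was not taken into account. Of 36 members 35 passed the filter on low reads, and Kif2b, a kinesin of the spindle, had reads in WT4 only, 6 of them or 0.365 CPM. WT26 and HIP30 stood apart in genes with no read at all: among 12102 tested genes 336 were at 0 in WT26 and 234 in HIP30, against 42 in WT1 and 0 in WT4, HIP2 and HIP3. The zeros of HIP30 included genes that are abundant elsewhere, such as Cd59, an inhibitor of complement on most cells, and Fn1, fibronectin, with at least 12328 and 5295 reads in each other library. A member at 0 in HIP30 is therefore given only as listed at 0. Duct markers were present in each library, with Krt19 between 1514 and 7326 CPM and Epcam between 1435 and 2672 CPM. Their levels were not constant. Of 11 tested duct markers 5 were negative and 6 positive, and 4 were higher in HIP at an unadjusted p under 0.05 (limma), against 3.29% of tested genes. After adjustment 0 passed. Spp1 stood at 278, 400 and 818 CPM in wild type and 1942, 1382 and 644 CPM in HIP. Krt8 stood at 8740, 3509 and 2105 CPM in wild type and 1617, 1643 and 3004 CPM in HIP.

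The division motors are set against the cargo motors first by their promoters, because cell cycle genes are known to share short elements near the start of transcription. RefSeq promoters of the build GRCr8 were found for 28 of the 36 members, 10 of them division motors and 15 of them cargo or cilium motors. In the 250 bases before the start, TTTGAA or TTTAAA, the letters of the cell cycle homology region, stood on either strand in 8 of 10 division motors, in 0 of 15 cargo and cilium motors and in 25.4% of all 33469 promoters. CCAAT, the box bound by NF-Y, stood in 6 of 10, in 3 of 15 and in 34.02%. GCGGGAA, an E2F-type site, stood in Kif18b alone among these motors and in 3.36% of all promoters. The median GC content was 62.6% in the division windows, 61.6% in the cargo and cilium windows and 51.2% over all promoters. A match of letters is a description of the window and not a binding site.

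The windows shown are those of 5 division motors with 1 cargo motor for contrast, each 250 bases 5′ to 3′ up to the base before the start, with every match to the 4 searched motifs in capitals. On the opposite strand the matches read ATTGG and TTCAAA. Kif11 lies at chr1:244536617-244536866 on the plus strand, Kif20b at chr1:241840766-241841015 on the plus strand, Kif22 at chr1:191080879-191081128 on the minus strand, Kifc1 at chr20:5000679-5000928 on the plus strand, Kif18b at chr10:88389692-88389941 on the minus strand and Kif5c at chr3:54441057-54441306 on the plus strand.
Kif11: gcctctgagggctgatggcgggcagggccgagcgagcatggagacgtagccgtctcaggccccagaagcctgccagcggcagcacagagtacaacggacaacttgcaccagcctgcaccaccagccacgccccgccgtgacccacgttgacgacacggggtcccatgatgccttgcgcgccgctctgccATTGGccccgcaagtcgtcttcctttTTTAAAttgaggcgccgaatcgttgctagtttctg
Kif20b: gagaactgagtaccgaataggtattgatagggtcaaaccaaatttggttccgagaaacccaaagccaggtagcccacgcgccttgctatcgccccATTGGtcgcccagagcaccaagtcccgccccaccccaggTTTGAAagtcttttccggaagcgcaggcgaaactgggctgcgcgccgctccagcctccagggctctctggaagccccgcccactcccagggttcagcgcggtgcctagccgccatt
Kif22: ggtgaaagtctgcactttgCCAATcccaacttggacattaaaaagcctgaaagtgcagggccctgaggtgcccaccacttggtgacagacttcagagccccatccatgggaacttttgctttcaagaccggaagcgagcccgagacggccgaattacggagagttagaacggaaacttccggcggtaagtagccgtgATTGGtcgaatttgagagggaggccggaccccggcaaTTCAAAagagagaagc
Kifc1: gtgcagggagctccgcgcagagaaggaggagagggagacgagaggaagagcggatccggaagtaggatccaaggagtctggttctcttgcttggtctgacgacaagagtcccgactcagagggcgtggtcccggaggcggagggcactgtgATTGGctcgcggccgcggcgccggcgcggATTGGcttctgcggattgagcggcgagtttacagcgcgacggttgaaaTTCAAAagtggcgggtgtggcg
Kif18b: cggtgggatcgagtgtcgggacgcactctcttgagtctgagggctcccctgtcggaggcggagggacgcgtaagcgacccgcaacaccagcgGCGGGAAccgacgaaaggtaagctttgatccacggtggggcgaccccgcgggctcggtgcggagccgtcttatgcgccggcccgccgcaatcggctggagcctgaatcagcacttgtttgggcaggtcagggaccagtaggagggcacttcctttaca
Kif5c: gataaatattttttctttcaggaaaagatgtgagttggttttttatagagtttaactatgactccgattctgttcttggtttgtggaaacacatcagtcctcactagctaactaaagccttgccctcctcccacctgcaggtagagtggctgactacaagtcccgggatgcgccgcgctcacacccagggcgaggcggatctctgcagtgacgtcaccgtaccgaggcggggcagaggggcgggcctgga

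The capitals of Kif11 mark ATTGG beginning 61 bases and TTTAAA beginning 35 bases before the start. In Kif22 and Kifc1 the element TTCAAA began 16 and 22 bases before the start, and in each gene an ATTGG preceded it, at 53 bases in Kif22 and at 99 and 70 bases in Kifc1. Kif20b held TTTGAA at 116 bases, and Kif5c held none of the searched letters. Kif18a and Kif18b were the 2 division motors without TTTGAA or TTTAAA in this window.

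All 10 division motors were lower in HIP than in wild type on average, yet HIP3 was at the level of wild type and HIP30 and HIP2 carried the gap. Their summed level was 911, 1082 and 662 CPM in wild type, and 97.9, 257 and 889 CPM in HIP. Each of the 10 genes was below its lowest wild-type library in HIP30 and in HIP2, where 28.9% and 24.5% of all tested genes were. In HIP3 0 of 10 were, against 17.9% of all genes. The order HIP30 below HIP2 below HIP3 held for 10 of 10, against 27.1% of all genes. Fewer cells in division and less of these transcripts per cell cannot be told apart in such bulk samples.

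**Figure D1:**
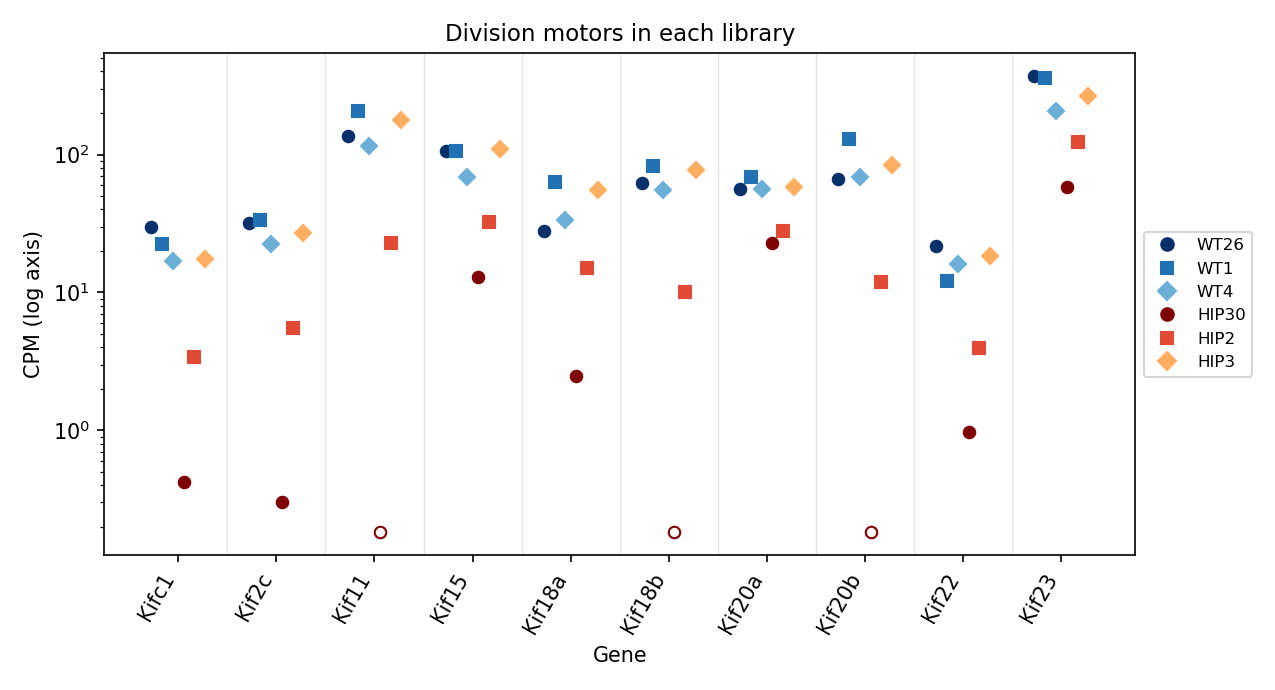
CPM of the 10 division motors on a log axis, with 1 point for each of the 6 libraries; open points mark genes listed at 0 and are drawn at the level of 3 reads. HIP30 and HIP2 lie below the 3 wild-type libraries in each gene, and HIP3 lies among or near them.

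Kif11, the motor that slides spindle microtubules apart to make the spindle bipolar, stood at 136, 207 and 116 CPM in wild type. It was listed at 0 in HIP30 and stood at 23.0 CPM in HIP2 and 178 CPM in HIP3. HIP3 thus lay inside the wild-type range, while the other HIP libraries lay below it. On the log2 scale HIP was at -4.22 against wild type, standard error 2.23 (limma, Benjamini-Hochberg adjusted p = 0.691).

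Kif15, which backs up Kif11 in holding the spindle poles apart, was not at 0 in HIP30. It stood at 107, 106 and 68.7 CPM in wild type and at 12.9, 32.5 and 109 CPM in HIP. Its level in HIP3 exceeded each wild-type library. Kifc1, a minus-end motor that gathers microtubules at the spindle poles, stood at 29.7, 22.4 and 16.8 CPM in wild type and 0.426, 3.42 and 17.4 CPM in HIP, where the value of HIP30 rests on 7 reads.

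Among motors that act on chromosomes and microtubule ends, Kif2c, a depolymerase that corrects faulty attachments at the kinetochore, stood at 31.8, 33.4 and 22.6 CPM in wild type and at 0.304, 5.495 and 27.0 CPM in HIP. Kif18b, which works with Kif2c on microtubules that reach the cell cortex, stood at 62.0, 82.1 and 55.0 CPM in wild type and was listed at 0 in HIP30, beside 10.1 and 77.0 CPM in HIP2 and HIP3. Both genes had their lowest value in HIP30 and an HIP3 value inside the wild-type range. Kif18a, which damps the swinging of chromosomes at the spindle equator, stood at 28.0, 63.4 and 33.3 CPM in wild type and 2.49, 15.1 and 55.1 CPM in HIP. Kif22, a motor that binds chromosome arms, stood at 21.8, 12.1 and 16.0 CPM and at 0.973, 3.97 and 18.3 CPM.

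The motors of the last step, cytokinesis, were not alike in HIP30. Of all division motors Kif20a and Kif23 kept the most there, while Kif20b was at 0. Kif23, which forms the centralspindlin complex with Racgap1, stood at 372, 357 and 208 CPM in wild type and at 57.8, 123 and 265 CPM in HIP. Kif20a, which brings the chromosomal passenger complex to the spindle midzone, stood at 56.3, 68.3 and 55.9 CPM in wild type and at 23.0, 27.8 and 58.2 CPM in HIP. Kif20b, a motor of the midbody, stood at 66.1, 129.7 and 69.1 CPM and was listed at 0 in HIP30, with 11.9 and 84.2 CPM in HIP2 and HIP3. HIP30 thus held 38.2% of the wild-type mean of Kif20a and 18.5% of that of Kif23, and at most 13.8%, in Kif15, of the other 8. The gene body of Kif20a overlaps Cdc23, a subunit of the anaphase-promoting complex, in the GRCr8 annotation, and Cdc23 stood at 123 CPM in HIP30 against 79.6 to 132 CPM in wild type. Whether the reads of Kif20a in HIP30 come in part from Cdc23 was not tested. Kif23 overlaps no protein-coding gene there. Kif11 shares 22010 bases with Ide, an insulin-degrading protease, which had 2764 reads in HIP30 where Kif11 had none. Kif15 shares 7280 bases with RGD1311745, which had 172 reads in HIP30 against 213 for Kif15. Whether counting used strand is not stated, and reads from bases that genes share cannot be assigned here.

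The share of the wild-type mean that was left in HIP2 was similar among the 3 genes listed at 0 in HIP30, at 15.04% for Kif11, 15.2% for Kif18b and 13.5% for Kif20b. It was higher for Kif18a, Kif15, Kif23 and Kif20a, at 36.3%, 34.7%, 39.4% and 46.3%, which were also the 4 division motors with the most left in HIP30. Over the 10 genes HIP2 held a median of 21.3% of the wild-type mean, HIP30 3.85% and HIP3 103%. Among all genes, 34 were listed at 0 in HIP30 with at least 100 reads in each other library, Kif11, Kif18b and Kif20b included. These 34 held a median of 15.1% of the wild-type mean in HIP2, so that such a share is not particular to the motors.

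No division motor passed the test over all genes, and 3 of 10 reached an unadjusted p under 0.05 in limma, each of them lower, against 3.26% of tested genes that were lower at that limit. Those were Kif23 at -1.29 (log2, standard error 0.51), Kifc1 at -2.80 with 1.08 and Kif20a at -0.84 with 0.34 (Benjamini-Hochberg adjusted p = 0.691 for each). The genes with the largest differences, Kif11, Kif20b at -4.08 and Kif18b at -3.84, were not among them, where the standard errors were 2.23, 2.01 and 1.96 and the fitted size depends on the prior added to the 0 of HIP30. The median over the 10 was -2.35 on the log2 scale against 0.01 over all tested genes. Without HIP3 the median was -3.49 and 10 of 10 reached the unadjusted limit, where 14.9% of all genes did. Without HIP30 the median was -1.05 and 1 of 10, Kifc1, did so, where 2.21% of all genes did. Without WT4 1 of 10, Kif23, reached the limit (13.1% of all genes). Without WT26 (2.71%), WT1 (2.62%) or HIP2 (1.91%) 0 of 10 reached it. All 10 stayed negative under each alternative, and 0 passed after adjustment in any of them.

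Markers of other cell types differed between the same libraries. The 9 measured markers of macrophages and other leukocytes summed to 97.1 to 433 CPM in wild type, 2157 CPM in HIP30, 2145 CPM in HIP2 and 296 CPM in HIP3, carried by Mpeg1, a pore protein of macrophages, at 1929 and 1945 CPM in HIP30 and HIP2. Ptprc, which marks all leukocytes, stood at 54.4 to 90.7 CPM in wild type and 67.9 to 74.4 CPM in HIP. All 9 markers of this list were positive, against 51.1% of tested genes. The 8 fibroblast markers summed to 1408 to 2146 CPM in wild type and to 417, 748 and 1737 CPM in HIP. All 8 were negative, against 48.9% of tested genes, and 5 were lower at an unadjusted p under 0.05 (limma), against 3.26%. After adjustment 0 passed. The groups did not overlap in 4 of 8, each lower, against 4.27% of tested genes. The order HIP30 below HIP2 below HIP3 held for 7 of 8, against 27.1%. Mpeg1 was listed at 0 in WT26. Of 7 tested markers of smooth muscle and pericytes 6 were negative, against 48.9% of all tested genes. Acta2, smooth muscle actin, stood at 11.1, 6.82 and 11.8 CPM in wild type and at 0.973, 1.59 and 9.93 CPM in HIP. The positive one, Mylk, stood at 17.5, 82.3 and 193 CPM in wild type and at 298, 279 and 169 CPM in HIP. All 8 measured markers of this list summed to 179, 274 and 433 CPM in wild type and to 367, 396 and 346 CPM in HIP. Of 6 tested genes of RNA quality and dissociation 4 were negative and 2 positive. The early response genes Fos, Atf3 and Egr1, 3 of the 6, were lower at an unadjusted p under 0.05 (limma, adjusted p = 0.691). That limit was reached by 3.26% of tested genes in the lower direction. In the same 3 the groups did not overlap, against 4.27% of tested genes in that direction. Jun, another early response gene, was positive, at 184, 229 and 380 CPM in wild type and 381, 407 and 329 CPM in HIP. Fos stood at 118.8, 86.8 and 80.1 CPM in wild type and at 19.2, 41.5 and 49.5 CPM in HIP, and Atf3 at 100.1, 45.8 and 23.2 CPM and at 1.22, 11.4 and 12.7 CPM. The part of these cells and genes in the level of the division motors was not tested.

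Partner proteins that division motors need showed the same libraries as low. Of 12 measured partners 11 were negative, against 48.9% of all tested genes, and 7 were listed at 0 in HIP30, namely Racgap1, Prc1, Tpx2, Aurkb, Birc5, Cit and Ect2. In HIP2 the partners held a median of 16.9% of the wild-type mean, and in HIP3 98.4%. Incenp, the scaffold of the chromosomal passenger complex, stood at 60.8, 78.4 and 70.6 CPM in wild type and at 8.02, 19.3 and 69.1 CPM in HIP. Cdca8, another subunit of that complex, stood at 62.5, 32.1 and 25.8 CPM in wild type and at 7.17, 12.2 and 34.9 CPM in HIP. These 2 of 12 partners had an unadjusted p under 0.05 (limma, adjusted p = 0.691), against 3.26% of tested genes that were lower at that limit. Birc5, or survivin, had 1.89 CPM in HIP2 and 9.93 CPM in HIP3 against 8.05 to 14.7 CPM in wild type. Numa1, which anchors dynein at spindle poles and has roles outside mitosis, was the exception at 0.04. The list of partners shares its cells and libraries with the motors and is no independent evidence.

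**Figure D2:**
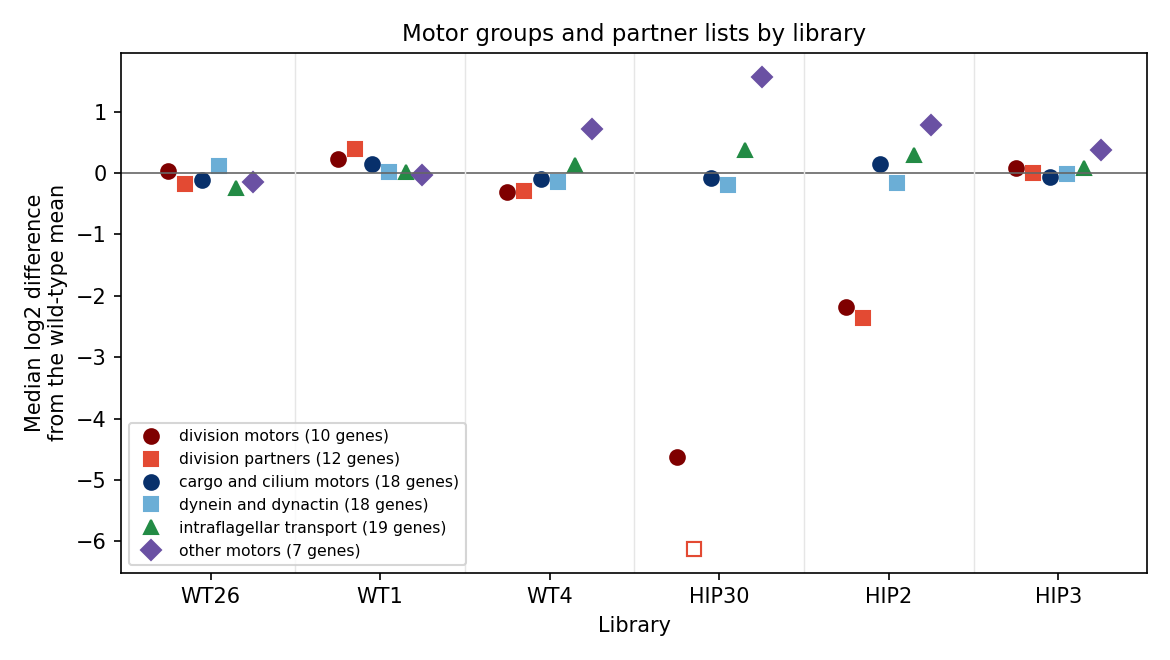
Median log2 difference of each group of genes from the wild-type mean, for each of the 6 libraries, with 1 symbol per group. Division motors stand at -4.63 in HIP30, and they and their partners at -2.18 and -2.36 in HIP2; the open symbol marks the partners in HIP30, where 7 of 12 were listed at 0 and the position is set by the added prior. The cargo and cilium, dynein and intraflagellar groups stay between -0.25 and 0.37 in all 6 libraries, and the other motors reach 1.57 in HIP30.

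By their medians the 18 motors and chains of cargo and cilium transport did not share this pattern. In HIP30 5 of 18 were below their lowest wild-type library, against 28.9% of tested genes. In HIP2 3 of 18 were, namely Kif1c, Kif13a and Kif3c, against 24.5%. The order HIP30 below HIP2 below HIP3 held for 4 of 18, against 27.1%. The median log2 difference of the 18 was 0.04, with 8 negative and 10 positive, and 12 of 18 lay within 0.5 of 0. Set against the mean of wild type, their median was -0.09 for HIP30, 0.15 for HIP2 and -0.07 for HIP3, and ran from -0.11 to 0.15 over the wild-type libraries. The division median minus the transport median was 0.14, 0.07 and -0.22 in WT26, WT1 and WT4, and -4.55, -2.33 and 0.16 in HIP30, HIP2 and HIP3. Over both groups of libraries this contrast was -2.39, given as a description with no test.

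Kinesin-1 pulls vesicles and mitochondria with heavy chains of the Kif5 type and light chains that hold the cargo. Kif5b, the heavy chain found in most cells, stood at 347, 631 and 372 CPM in wild type and at 212, 375 and 479 CPM in HIP. HIP30 lay below each wild-type library, and the other HIP libraries lay inside their range. The difference was -0.37 on the log2 scale with a 95% interval of -1.17 to 0.44 (limma, adjusted p = 0.831). Kif5c, best known from neurons, stood at 159, 147 and 116 CPM and at 171, 150.1 and 106 CPM, so that the groups overlapped throughout, with an interval of -0.53 to 0.52 (limma, adjusted p = 0.998).

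Kif5a, the other neuronal heavy chain, stood at 0.119 to 1.46 CPM in wild type and 0.122 to 1.95 CPM in HIP, which is 2 to 32 reads. Its high libraries were WT4, HIP2 and HIP3, and WT4 and HIP3 were also those with the most islet transcripts, at summed marker levels of 11602 and 5193 CPM against 12.4 to 415 CPM in the others. Of 15 neural and Schwann cell markers 6, 3 and 0 were at 0 in WT26, WT1 and WT4, and 4, 2 and 2 in HIP30, HIP2 and HIP3. WT26 and HIP30 also had the most zeros among all tested genes, at 336 and 234. The part of islet and neural cells in Kif5a was not tested.

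Of the light chains, Klc1 stood between 76.9 and 89.3 CPM in wild type and between 65.0 and 81.3 CPM in HIP. Klc4 ran from 29.5 to 51.3 CPM and from 26.3 to 44.2 CPM. Klc3, which is rich in testis, reached 10.2 CPM in HIP2 beside 3.40 to 4.92 CPM in the other 5 libraries. No light chain reached an unadjusted p under 0.05, and Klc1 had the narrowest interval of the 3, from -0.55 to 0.27 on the log2 scale.

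Motors of the kinesin-3 branch move endosomes and secretory carriers over long distances. Kif1b, which carries mitochondria and vesicle precursors, stood at 420.4, 431 and 293 CPM in wild type and 313, 349 and 345 CPM in HIP. Kif1c, a carrier of integrins and dense-core vesicles, stood at 165, 205 and 123 CPM and at 97.1, 122 and 144 CPM, and Kif13a, a motor of recycling endosomes, at 166, 200.4 and 142 CPM and at 92.7, 129 and 173 CPM. Both genes were below the wild-type range in HIP30 and HIP2 and inside it in HIP3, and kept 59.1% and 54.8% of the wild-type mean in HIP30. Kif13b, which binds the polarity protein Dlg1, went the other way, with 328 and 366 CPM in HIP30 and HIP2 against 241 to 297 CPM in wild type and 249 CPM in HIP3. Kif16b, a motor of early endosomes, stood at 136 to 177 CPM in wild type and 143 to 186 CPM in HIP. The 5 log2 differences ran from -0.43 to 0.22, and none reached an unadjusted p under 0.05.

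Kinesin-2 moves intraflagellar transport trains to the tip of the cilium as a complex of Kif3a, Kif3b and the adaptor Kifap3. These 3 subunits had the smallest differences of the cilium group, at 0.04, 0.08 and 0.04 on the log2 scale. Kif3a stood between 51.4 and 76.0 CPM in wild type and between 59.3 and 66.4 CPM in HIP, Kif3b between 93.5 and 128 CPM and between 94.5 and 132 CPM, and Kifap3 between 121 and 155 CPM and between 133 and 153 CPM. The 95% interval for Kifap3, from -0.35 to 0.43, leaves room for changes of that size in either direction.

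Kif3c, which replaces Kif3b in some kinesin-2 complexes, separated from them. It stood at 31.6, 20.9 and 19.8 CPM in wild type and at 3.95, 10.4 and 15.7 CPM in HIP. Each HIP library was below each wild-type library, as in 4.27% of tested genes, and the mean went from 24.1 ± 6.50 (SD, n = 3) to 10.03 ± 5.91 CPM. The log2 difference was -1.43 with a standard error of 0.51 (limma, unadjusted p = 0.0226, adjusted p = 0.691). Like the division motors it was lowest in HIP30, but it was also low in HIP3, at 65.3% of the wild-type mean. Without HIP30 the difference was -0.87 and without HIP3 -1.87. Kif3c shares 35316 bases with Asxl2 in the GRCr8 annotation, a chromatin regulator whose level was not analysed here, and the part of its reads in Kif3c was not tested.

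The motors of motile cilia and of cilium length were low and went against the division motors. Kif19, which trims microtubules at the ciliary tip, stood at 3.28, 2.58 and 5.41 CPM in wild type and at 13.9, 7.999 and 3.31 CPM in HIP. Kif27, a relative of the Hedgehog regulator Kif7, stood at 1.73, 2.64 and 4.62 CPM and at 10.5, 6.72 and 4.11 CPM, and Kif9, a motor of the motile axoneme, at 1.97, 1.41 and 3.34 CPM and at 8.45, 3.85 and 1.41 CPM. All 3 were above each wild-type library in HIP30 and HIP2, where 30.6% and 25.3% of tested genes were. In HIP3 Kif19 and Kif27 were inside the wild-type range, and Kif9 was just below its lowest wild-type library. Their log2 differences were 0.98, 1.22 and 0.74 with standard errors of 0.59, 0.54 and 0.71, and none reached an unadjusted p under 0.05. Kif9 overlaps Setd2 in the GRCr8 annotation, which had 438 to 656 CPM, and Setd2 was lowest in HIP30. Foxj1, the factor that defines multiciliated cells, had 0 or 1 read in 5 libraries and 14 reads in HIP2, and the 8 measured markers of such cells summed to 63.7 to 76.7 CPM in wild type and 95.02, 115 and 74.0 CPM in HIP. Ccdc39 made up most of that sum, at 46.4 to 91.1 CPM, and Rsph1 was lower in each HIP library, at 7.84 to 10.4 CPM against 11.5 to 16.0 CPM. Tekt1 was higher in each HIP library, at 0.358, 2.15 and 3.77 CPM in wild type and 11.2, 12.6 and 4.04 CPM in HIP. Its values in WT4 and HIP3 were close, at 62 and 66 reads. Of 4 tested markers of multiciliated cells 1 was thus separated as lower and 1 as higher, against 4.27% and 5.27% of tested genes. The part of such cells in the 3 motors was not tested.

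**Figure D3:**
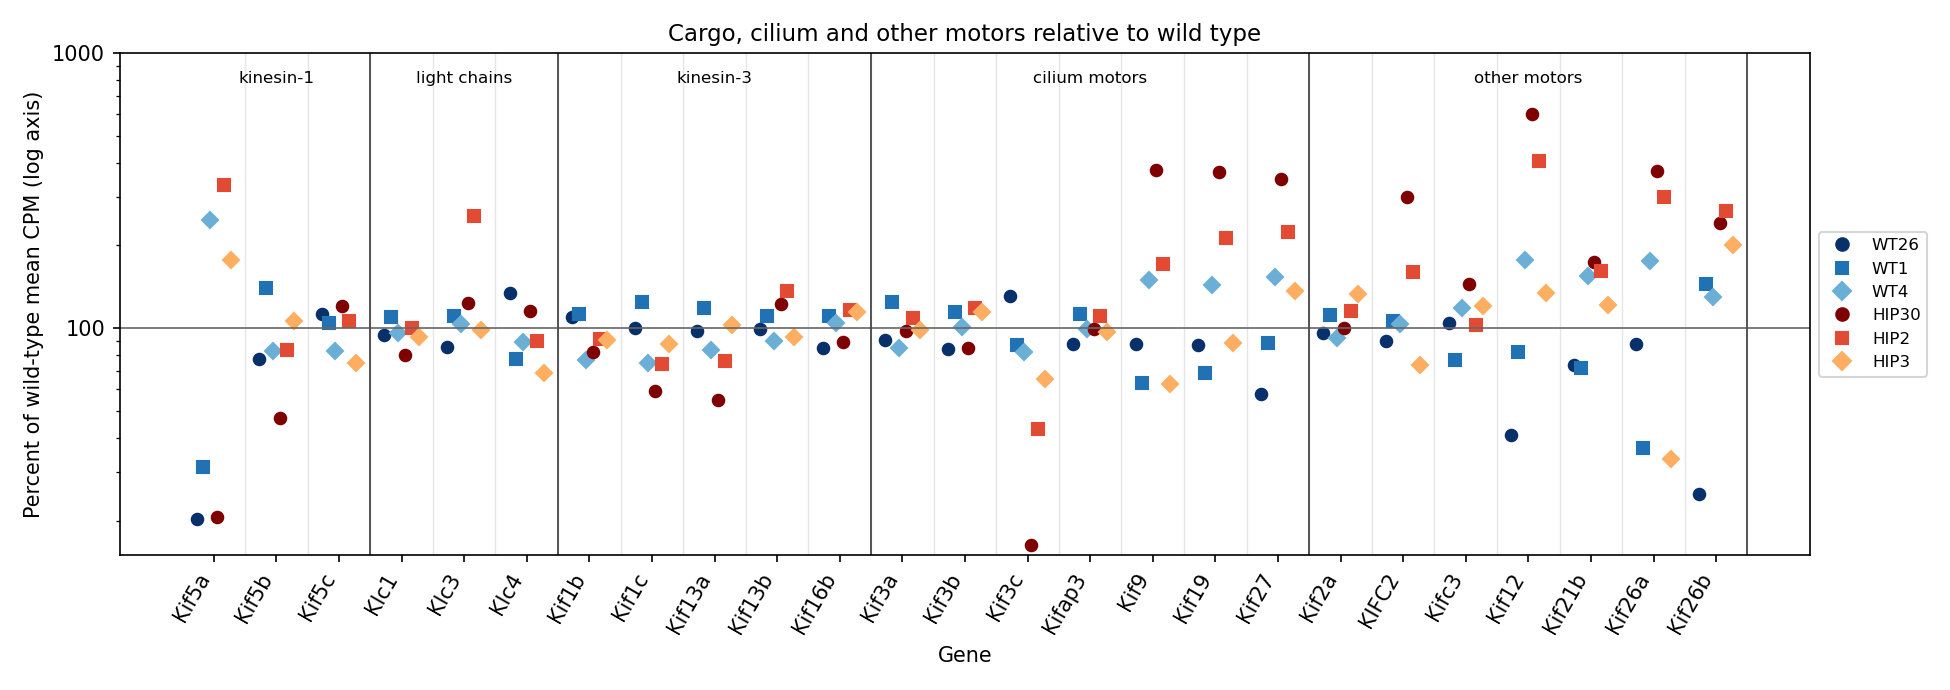
CPM of the 25 tested members outside cell division as a percent of their wild-type mean, on a log axis, with 1 point for each of the 6 libraries. In Kif3c each HIP library lies below each wild-type library. The highest points of HIP30 are those of Kif12, Kif9, Kif26a, Kif19, Kif27 and KIFC2.

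Among the remaining motors, Kif12 had the largest positive difference of the family. Kif12 is a little known kinesin of kidney and liver epithelium whose loss in humans causes a cholestatic liver disease. It stood at 36.0, 72.1 and 156 CPM in wild type and at 529, 357 and 118 CPM in HIP. HIP30 and HIP2 lay above each wild-type library, and HIP3 lay below WT4, so that the groups overlapped. The mean was 335 ± 206 (SD, n = 3) against 88.0 ± 61.6 CPM, and the log2 difference was 1.93 with a standard error of 0.65 (limma, unadjusted p = 0.0175, adjusted p = 0.691). Without WT26 it was 1.41 and without HIP3 2.54.

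Kif26b, an atypical kinesin that binds microtubules and acts in kidney development, was the member that was higher in each HIP library than in each wild-type library. It stood at 1.79, 10.4 and 9.36 CPM in wild type and at 17.3, 19.1 and 14.4 CPM in HIP, and 5.27% of tested genes were separated in that direction. The log2 difference was 1.56 with a standard error of 0.64 (limma, unadjusted p = 0.0412, adjusted p = 0.691), and it went to 0.76 without WT26. Its relative Kif26a ran from 0.676 to 3.22 CPM in wild type and was 6.87, 5.495 and 0.613 CPM in HIP.

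Kif21b, which slows microtubule growth, stood at 47.4, 46.1 and 99.0 CPM in wild type and at 111, 103 and 78.0 CPM in HIP, which is 0.68 higher on the log2 scale, standard error 0.32. KIFC2, a minus-end motor known from neurons, reached 28.4 CPM in HIP30 and 15.2 CPM in HIP2 against 8.53 to 10.1 CPM in wild type, and stood at 6.99 CPM in HIP3, below each wild-type library. Kifc3, a minus-end motor that reaches adherens junctions of epithelia, ran from 23.6 to 36.5 CPM in wild type and from 31.7 to 44.4 CPM in HIP. Kif2a, a depolymerase of spindles and of neurites, ran from 62.3 to 76.2 CPM and from 68.1 to 90.3 CPM. All 7 tested genes of this mixed group had a positive difference, from 0.21 to 1.93, against 51.1% of all tested genes, and 4 of 7 had the order HIP30 above HIP2 above HIP3, against 26.1%.

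**Figure D4:**
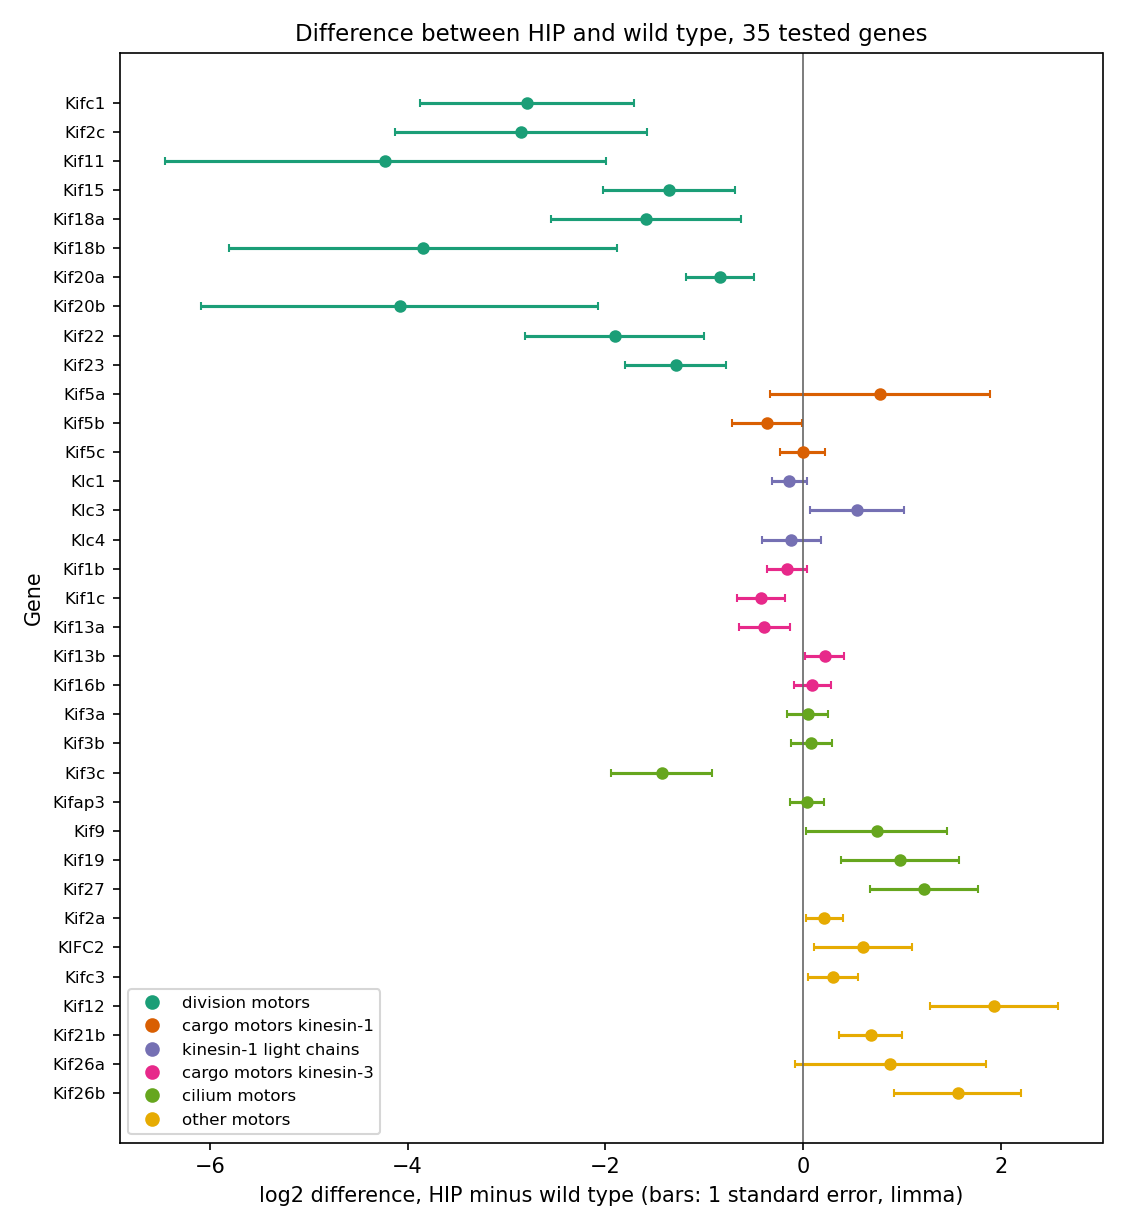
Log2 difference between HIP and wild type for the 35 tested members, grouped by role; points are limma estimates and bars 1 standard error. The division motors lie at -0.84 or lower, and Kif12 and Kif26b lie farthest on the positive side.

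Over the 35 tested members 6 reached an unadjusted p under 0.05 in limma, of which 4 were lower (Kif23, Kifc1, Kif20a and Kif3c) and 2 higher (Kif12 and Kif26b), against 6.54% of tested genes in both directions and 3.29% in the higher one. The groups did not overlap in 2 of 35, Kif3c and Kif26b, against 9.54% of tested genes. Limma-voom gave 11, against 7.55% of tested genes. After adjustment over 12102 genes 0 members and 0 genes passed by either tool, with a smallest adjusted p of 0.691 in limma. The count of 6 became 18 of 34 without HIP3 (14.9% of all genes), 7 of 34 without WT4 (13.1%), 3 without HIP30 (2.21%) or WT1 (2.62%), and 1 without HIP2 (1.91%) or WT26 (2.71%). Limma gave 9 members with a prior of 1 CPM, against 7.47% of tested genes.

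Medians of the dynein and adaptor lists were close to wild type, while single genes differed. Of 18 tested subunits of dynein and dynactin, the motor that runs opposite to most kinesins, 16 were negative with a median log2 difference of -0.11, against 48.9% of all tested genes that were negative. Their lowest p values belonged to Dctn3, Dynlt3 and Dctn1, at -0.52, -0.67 and -0.24, and no member of the list reached an unadjusted p under 0.05. Of 18 tested adaptors and regulators that link kinesins to cargo 8 were negative and 10 positive, with a median of 0.08. Trak2, which joins kinesin-1 to mitochondria, stood at 287, 355 and 294 CPM in wild type and at 181, 238.01 and 232 CPM in HIP, with no overlap and a difference of -0.53 (limma, unadjusted p = 0.0225, adjusted p = 0.691). Dtnb, a dystrobrevin that binds kinesin-1, differed by 1.22 (limma, unadjusted p = 0.0299, adjusted p = 0.691) and Plekhm2, which joins kinesin-1 to lysosomes, by 0.45. The adaptors ran from -0.76 to 1.22. At an unadjusted p under 0.05, 1 adaptor was lower and 1 higher, against 3.26% and 3.29% of tested genes. In 2 of 18 each HIP library was below each wild-type library, against 4.27% of tested genes.

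Of 19 measured genes of intraflagellar transport, the cargo of kinesin-2 in cilia, 17 were positive, against 51.1% of all tested genes. Their median log2 difference was 0.26, and the highest was 0.66. Wdr60 and Ift57, 2 of 19, were higher in each HIP library than in each wild-type library, against 5.27% of tested genes, with Wdr60 at 38.2, 52.0 and 57.9 CPM in wild type and 58.0, 77.7 and 67.3 CPM in HIP. Ttc21b differed by 0.39 and Dync2li1 by 0.66, and 0 of 19 reached an unadjusted p under 0.05. By library, its median stood at -0.25, 0.02 and 0.13 in wild type and at 0.37, 0.30 and 0.09 in HIP, relative to the mean of wild type.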

How the data were processed

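RNA of laser-captured duct glands was sequenced in 6 libraries, 3 per group. STAR, HTSeq, edgeR, limma and rn5 are listed, without versions or roles, per the submitters' processing notes. Nothing states whether strand was used in counting. Log2 CPM values per gene and library were deposited by the authors. The lowest value, -6.04, is the same in each library, and whole reads were recovered from 100% of values within 0.1 reads. No molecular identifiers are stated, so limits of 3 reads cover counting error only.

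Counts were scaled by TMM (trims of 30% and 5%, factors 0.933 to 1.09) then 0.121 CPM, worth 2 reads on average, was added before log2. Limma 3.58.1 (R 4.3.3) was fitted with its trend option. At least 3 libraries had to reach 0.61 CPM, that is 10 reads at median depth, and all 6 together 15 reads, which left 12102 genes; the 4 rows of 2 repeated symbols were left out. P-values were adjusted over all tested genes by Benjamini-Hochberg at 0.05. The steps were tested on simulated data.

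Members and lists were chosen with earlier results of these data known. Per-library values are printed for all division motors with at least 1 CPM, for up to 5 members of each other role with at least 5 CPM in the higher group by lowest p, and for members whose groups do not overlap; Kif3a, Kif5a, Kif9, Kif2a, Kif2b and Kif26a were named after their values were seen. Cd59, Fn1, Spp1, Krt8, Mpeg1, Acta2, Mylk, Fos, Jun, Atf3, Egr1, Ccdc39, Rsph1, Tekt1, Cdc23, Ide, RGD1311745, Ift57 and Setd2 were named the same way. Symbols of all 36 members match the GRCr8 table, from which promoters and overlaps were taken; no coordinates of rn5 were used. Alternatives covered prior, scaling, filter, limma-voom, a term for the numbers 26 and 30, and leaving out each library. Figures were drawn with matplotlib 3.10.9.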

Additional observations from a re-analysis of the deposited data

How the results depend on the processing

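No gene passed the adjusted threshold under any alternative, and the smallest adjusted p ran from 0.0874 without HIP3 to 0.998 without HIP2 with 1 library left out, and reached 0.9998 among the libraries numbered 1 to 4. The median log2 difference of the division motors stayed negative, from -3.49 without HIP3 to -1.05 without HIP30 with 1 library left out in turn, from -2.44 to -1.92 over the other settings of prior, scaling, filter, tool and number term, and -0.92 among the libraries numbered 1 to 4, a choice made after seeing the data. The median of the cargo and cilium motors ran from -0.07 without WT4 to 0.14 without WT1, and the contrast between both medians from -3.54 to -1.13, both with 1 library left out in turn; among the libraries numbered 1 to 4 they were -0.0053 and -0.92. The summed level of the division motors differed by -707 CPM without HIP3 and by -312 CPM without HIP30. The sign turned in 5 of 30 named genes. With 1 library left out in turn, Kif5c ran from -0.14 to 0.19, Klc4 from -0.30 to 0.11, Kif16b from -0.022 to 0.22, Kif3b from -0.036 to 0.24 and Kifap3 from -0.050 to 0.12. Kif5c was at 0.070 with library totals in place of TMM, which moved the median of all genes from 0.01 to 0.08, and Kifap3 was at -0.028 among the libraries numbered 1 to 4. The cause was not tested. The other 25 genes kept their direction in all 14 alternatives. No paired analysis was possible because the groups share no replicate number in the labels. Depth limits Kif2b, Kif5a and the low values of Kif2c and Kifc1 in HIP30.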

Other observations

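Among all genes of the tables, 34 were listed at 0 in HIP30 with at least 100 reads in each of the other 5 libraries, and 21 were listed so in WT26, against 0 in each of the other 4 libraries. Kif11, Kif18b and Kif20b belong to the 34, as do Cd59 and Fn1. In HIP2 these 34 genes held a median of 15.1% of their wild-type mean, with the middle part of the genes between 12.8% and 19.1% and the whole range from 5.82% to 32.0%. In HIP3 their median was 101.2%, from 28.0% to 140.2%. Only 22 tested genes had 1 read in HIP30, where 234 had none, while in HIP2 24 had 1 read and 0 had none. No explanation of these zeros was tested.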
